A study of Mus musculus with 60 samples.

Results

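The Trim and Parp families were described in microglia, the resident macrophages of the brain, across 60 RNA libraries of C57BL/6N mice. Members were the genes whose symbol begins with Trim or Parp followed by a digit. There were 78 of them, 66 Trim and 12 Parp, among 22869 genes in the table. They were taken by name, and 19 of the 78 stood on a list of interferon-inducible members while 59 did not. The families and the list were chosen with earlier results of these data known, so the list is not independent of them. The libraries were of untreated males and females at embryonic day 18 (E18, 7 libraries), postnatal day 4 (P4, 8 libraries) and P14 (20 libraries), and of adults at P60, given the bacterial endotoxin lipopolysaccharide (LPS, 13 libraries, 7 male and 6 female) or saline (12 libraries, 5 male and 7 female). The stage groups held 4 males and 3 females at E18, 4 of each sex at P4 and 10 of each at P14. The dose of LPS and the time after it are not given in the labels, and nothing in them says whether a library is 1 animal or a pool, so p-values measure the spread between libraries.

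TRIM proteins carry a RING finger, B-box and coiled coil, and most act as ubiquitin ligases. PARP proteins move ADP-ribose from NAD+ onto proteins, as single units or as chains. Type I interferon, which signals through the STAT factors, induces many members of both families, and some of these act in antiviral defence, while others serve DNA repair, chromatin silencing or the neuronal cytoskeleton. In microglia, LPS acts through Toll-like receptor 4 and is known to start an interferon response.

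Levels are given in CPM, the count of a gene scaled to the same total in every library, as the median with the lowest and highest library in brackets. A member is called where the adjusted p of the test over all genes is under 0.05, and errors on log2 folds are SE. Totals ran between 802016 and 3497454 counts a library, with a median of 970080 with LPS against 2092799 with saline. The 12 microglial markers summed to a median of 30265 CPM with LPS and 37157 CPM with saline, against 4750 CPM at E18, 14773 CPM at P4 and 25909 CPM at P14. Neuron markers summed to a median of 2070 CPM at E18 and to at most 247 CPM in any later library. The library titled M_E18 4 stood apart, with 24.8% of its counts from Ttr, a gene of the choroid plexus, and no Y-linked count under a male title, and 2 others had over 10% Ttr. These are bulk samples, so fewer cells of a type and less RNA per cell cannot be told apart. Each label carries a month and day of a step it does not name. No date held 2 conditions, so date and condition cannot be told apart.

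Detection split the families. All 12 Parp genes passed the low-count filter, in the fit of stages and in that of LPS. Of the Trim genes, 28 passed neither filter, and the highest condition mean among these was 2.53 CPM, of Trim6 with LPS. Counts were at 0 in all 60 libraries for 4 members, Trim31, Trim52, Trim54 and Trim61, which allows up to 0.0278 CPM over the 107817594 counts of all libraries, for counting error alone. The muscle genes Trim54, Trim55, Trim63 and Trim72 summed to at most 6.58 CPM in a library, and the red cell genes Trim10 and Trim58 to at most 2.08 CPM. Per kilobase of transcript, the member with the highest mean level at E18 was Trim28 at 127 ± 38.3 CPM per kb (SD, n = 7). At P60 Trim30a led with LPS at 95.1 ± 39.9 CPM per kb (SD, n = 13), followed by Trim30d at 66.7 ± 22.1, and their ranges of 1 SD overlapped. With saline Trim28, Trim30a and Trim30d followed each other at 42.9 ± 11.1, 39.3 ± 13.7 and 39.1 ± 9.4 CPM per kb (SD, n = 12), which is less apart than the spread.

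With LPS, 9 of the 16 interferon-inducible members that could be tested rose and none fell. Over all 10538 genes tested in this comparison 14.4% were called, 10.5% rose and 3.95% fell. The median log2 fold of the 16 was 0.66, against -0.07 over all genes, and the median of the 28 tested members outside the list was also -0.07. Among those 28, 1 rose and 1 fell. The members on the list without a test, Trim6, Trim34b and Trim38, stood under the low-count filter. Of the 9 that rose, Trim30b passed it through its LPS libraries alone.

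Parp14, a mono-ADP-ribosyltransferase that takes part in STAT signalling, had 429 CPM (153 to 561) with LPS, against 86.5 CPM (46.1 to 143) with saline. Every LPS library stood above every saline library, and no other member had groups that did not overlap. The share of all genes whose groups did not overlap was not counted. Its log2 fold was 2.19 ± 0.17 (adjusted p = 7.75e-11). Parp9, which forms a complex with the ubiquitin ligase Dtx3l, had 118 CPM (60.6 to 166) with LPS, against 63.1 CPM (41.9 to 95.6) with saline. Its groups overlapped, with 11 of 13 LPS libraries above the highest saline library, and the log2 fold was 0.95 ± 0.14 (adjusted p = 5.22e-06). In the RefSeq gene table (GRCm38.p6) Parp14, Dtx3l and Parp9 lie within a run of 5 genes on chromosome 16, and Dtx3l rose too, by 0.88 ± 0.16. Parp12, a zinc finger PARP with antiviral activity, had 103 CPM (76.3 to 184) with LPS, against 72.8 CPM (31.2 to 89.9) with saline, and 10 of 13 LPS libraries exceeded the saline range. Its log2 fold was 0.67 ± 0.14 (adjusted p = 6.34e-04).

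Trim30a, known in mice as a brake on NF-kB signalling, had 320.4 CPM (174 to 696) with LPS, against 134 CPM (86.3 to 295) with saline. The groups overlapped, with 9 of 13 LPS libraries above the highest saline library. The log2 fold was 1.36 ± 0.18 (adjusted p = 2.08e-06). Its near copies moved the same way, Trim30d with 129 CPM (81.4 to 228) with LPS, against 65.7 CPM (57.9 to 118) with saline and a log2 fold of 0.87 ± 0.14 (adjusted p = 4.33e-05). Trim30b rose by 2.56 ± 0.33 (adjusted p = 7.20e-07), from few counts, with 15.6 CPM (4.78 to 31.5) with LPS, against 3.23 CPM (0 to 6.23) with saline. These values rested on 237 counts over the 13 LPS libraries and 68 over the 12 saline libraries. Trim30b passed the low-count filter through its LPS libraries alone, so its being tested favoured a rise. Its call held in 36 of 36 alternatives, no filter among them. Trim30a, Trim30b and Trim30d are close copies in a cluster on chromosome 7 that holds 8 of the 19 listed members, among them Trim12a and Trim12c and Trim34a and Trim34b, so how reads were shared among them is uncertain.

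Trim25, the ligase that ubiquitinates the RNA sensor RIG-I (Ddx58), had 89.8 CPM (66 to 182) with LPS, against 59.4 CPM (37.4 to 72) with saline. In 12 of 13 LPS libraries it stood above the saline range, and the log2 fold was 0.88 ± 0.14 (adjusted p = 1.94e-05). Trim56, a ligase of the cytosolic DNA sensing pathway, had 38.8 CPM (22.3 to 51) with LPS, against 24.2 CPM (3.74 to 31.1) with saline, with 9 of 13 LPS libraries above the saline range. Its log2 fold was 0.70 ± 0.17 (adjusted p = 0.00336). Trim21, the cytosolic antibody receptor, had 36.5 CPM (27.8 to 56) with LPS, against 25.6 CPM (17 to 43.6) with saline, with 4 of 13 LPS libraries above the saline range. Its log2 fold was 0.65 ± 0.17 (adjusted p = 0.00753), and without the LPS libraries dated 4/8 the adjusted p was 0.0523.

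The other 7 tested members of the list were not called. Trim12c and Trim12a, relatives of human TRIM5, had log2 folds of 0.39 ± 0.14 (adjusted p = 0.0616) and 0.34 ± 0.13 (adjusted p = 0.0683). Parp10, at 0.47 ± 0.21, and Trim34a, at 0.37 ± 0.19, lay on the same side of 0. Trim26 had 97.5 CPM (52.2 to 129.9) with LPS, against 94.1 CPM (54.9 to 121) with saline, and its log2 fold of 0.04 ± 0.13 had an interval of -0.22 to 0.30. Parp11, at -0.04 ± 0.22, and Trim14, at -0.02 ± 0.32, also lay near 0, with intervals of -0.48 to 0.40 and -0.67 to 0.62. For Trim14, at 6.95 CPM (0 to 12.7) with LPS, the low counts left a wide interval.

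**Figure D1:**
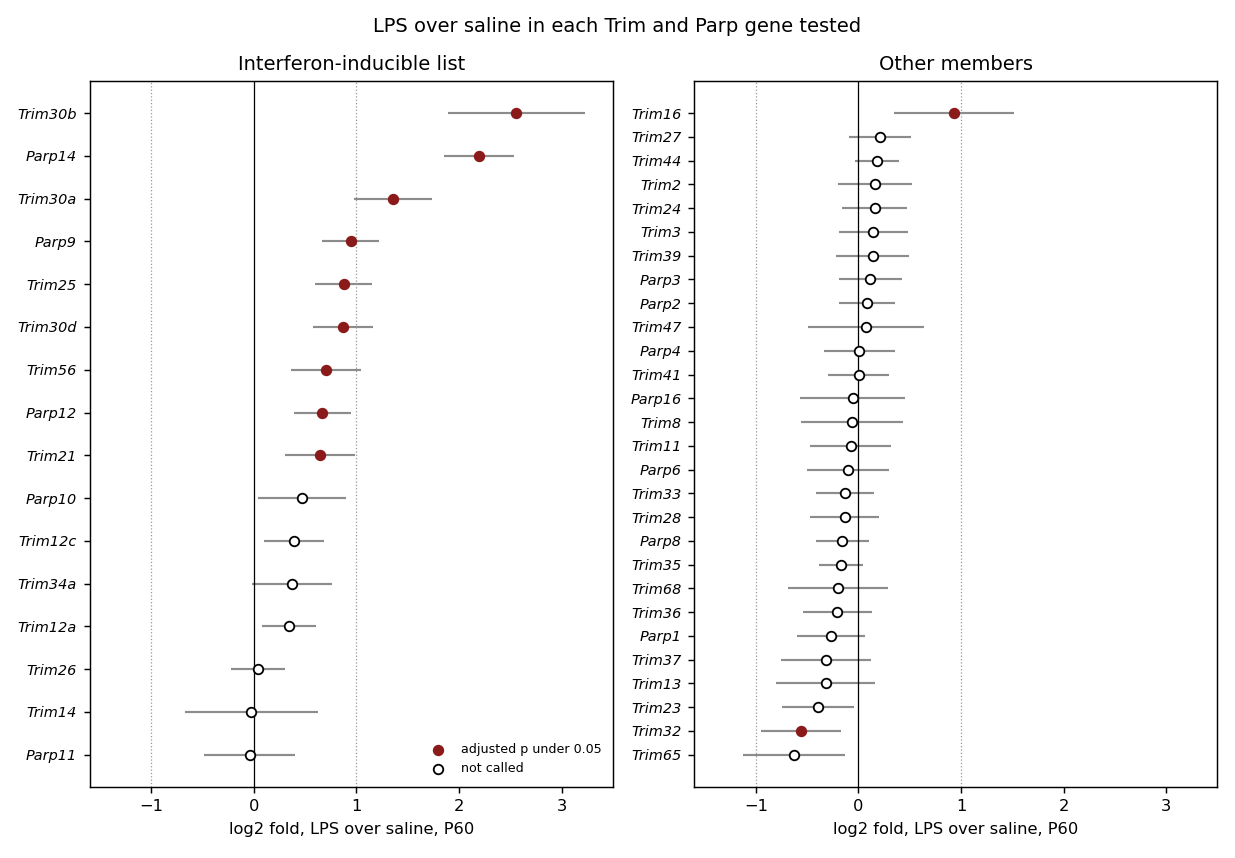
Log2 fold of LPS over saline at P60 (horizontal axis) for the 44 Trim and Parp genes tested, the 16 of the interferon-inducible list on the left and the 28 others on the right. Points are edgeR estimates, bars 95% intervals, filled points have an adjusted p under 0.05, and dotted lines mark a 2-fold change. The 9 filled points of the list all lie above 0, against 1 above and 1 below among the others.

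Markers of other cells moved with LPS beside these genes. All 8 tested neutrophil markers rose, and the 10 listed summed to a median of 780 CPM (395 to 6225) with LPS, against 112 CPM (21.6 to 442) with saline, and 0 of the 10 were at 0 in all LPS libraries. Of the monocyte markers, 5 of 7 rose, with sums of 151 CPM (109 to 879.9) with LPS, against 61.3 CPM (40.6 to 132) with saline. Lymphocyte markers summed to 42.6 CPM (11.3 to 84.2) with LPS, against 9.54 CPM (4.55 to 27.4) with saline, the 1 tested rose, and 4 of 12 microglial markers fell. Of the endothelial markers 5 of 10 fell and 1 rose, with sums of 1032 CPM (570.1 to 1669) with LPS, against 1551 CPM (729 to 2686) with saline. Of the oligodendrocyte markers 3 of 5 fell, and of the astrocyte markers 2 of 6 rose. Neutrophil sums had their highest median, 3972 CPM, in the 4 LPS libraries dated 4/9. Of these, M_P60_LPS 3, M_P60_LPS 4 and M_P60_LPS 5 had 6225, 5376 and 2567 CPM, and F_P60_LPS 4 had 659 CPM. The median of Trim30a was also highest at this date, at 516 CPM, against 320.4 CPM in the 5 dated 4/8 and 271 CPM in the 4 dated 4/10. Without the libraries dated 4/9 the same 9 members of the list were called, with log2 folds of 2.09 ± 0.18 for Parp14 and 1.15 ± 0.18 for Trim30a. The part that other cells had in the remaining difference was not tested.

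Outside the list, Trim16, a member without a RING finger, rose with LPS. It had 12.2 CPM (3.76 to 19.9) with LPS, against 6.48 CPM (0 to 13.9) with saline, the groups overlapped in most libraries, and its log2 fold was 0.93 ± 0.29 (adjusted p = 0.0245). It was not called in 3 of 36 alternatives. Trim32, a ligase of the TRIM-NHL group known from muscle and neural progenitors, fell. It had 15.8 CPM (11 to 31) with LPS, against 25.4 CPM (4.55 to 36.1) with saline and a log2 fold of -0.56 ± 0.19 (adjusted p = 0.0456), a call that was lost in 27 of 36 alternatives, with adjusted p of 0.00297 to 0.197.

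The promoters of the members were searched for a core of the interferon-stimulated response element, the sequence bound by interferon-activated factors. The motif was GAAA, then any 2 bases, then GAAA, read on either strand, where matches can overlap, in 300-base windows from 250 bases before to 50 after the start of each RefSeq entry (GRCm38.p6). Of the members, 59 had a window. The motif stood in 8 of 15 members of the interferon-inducible list with a window (53.3%), in 2 of 44 others (4.55%), and in 1079 of 27025 genes with a window (3.99%). Within the list it stood in 3 of 7 that rose with LPS and in 5 of 5 that were tested and not called. With the form GAA, any 2 bases, GAA, the shares were 8 of 15 on the list (53.3%), 9 of 44 others (20.5%) and 22.7% of all genes. A match of the motif need not hold this form, so the members counted differ. Trim21 and Trim26 each had 2 matches of the motif and 0 of this form. Every match of the motif does hold the form GAA, any 3 bases, GAA, which was chosen after seeing the data. With it the shares were 10 of 15 (66.7%), 10 of 44 (22.7%) and 24% of all genes. Parp9, Parp10, Parp14 and Trim14 had no window. Stretches of 60 bases with the motif before the start are shown for 5 members of the list, a pair that rose with LPS (Trim30a, in 1 of its 2 windows, and Trim30d) and 3 that were not called (Trim12c, Trim26 and Parp11), and for Parp4, which is not on the list. They run 5′ to 3′ on the strand of the gene, and capitals mark every match of the motif or its reverse complement.
Trim30a: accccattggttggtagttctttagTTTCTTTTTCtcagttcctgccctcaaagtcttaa
Trim30d: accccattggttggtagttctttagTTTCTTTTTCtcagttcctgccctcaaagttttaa
Trim12c: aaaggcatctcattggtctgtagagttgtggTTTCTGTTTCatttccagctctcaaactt
Trim26: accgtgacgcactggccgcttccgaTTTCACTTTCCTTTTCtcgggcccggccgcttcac
Parp11: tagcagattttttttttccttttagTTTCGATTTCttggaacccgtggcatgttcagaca
Parp4: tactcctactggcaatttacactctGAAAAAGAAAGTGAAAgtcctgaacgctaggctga
Those of Trim30a (chr7:104465195-104465254, minus strand) and Trim30d (chr7:104507856-104507915, minus strand) were identical at 59 of 60 bases, with the motif 36 to 27 and 41 to 32 bases before the start. That of Trim12c (chr7:104353350-104353409, minus strand) held it 29 to 20 bases before the start. Those of Trim26 (chr17:36836961-36837020), Parp11 (chr6:127446771-127446830) and Parp4 (chr14:56575444-56575503), all on the plus strand, held it 160 to 151, 44 to 35 and 150 to 141 bases before the start. Trim26 and Parp4 held a second match that overlaps the first, 154 to 145 and 144 to 135 bases before the start. A match is a description of the letters only.

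**Figure D2:**
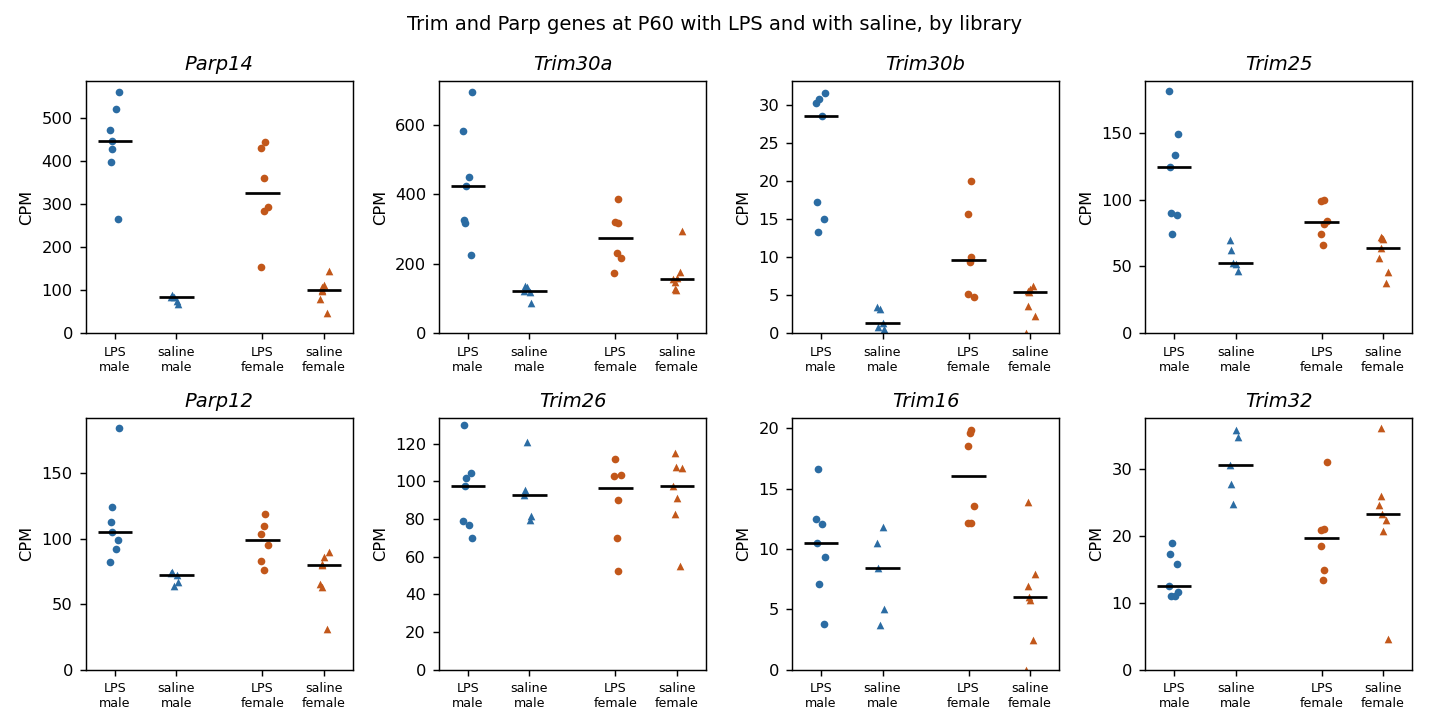
Levels in CPM (vertical axis, linear) of 8 Trim and Parp genes in each P60 library, with LPS (circles) left of saline (triangles), males in blue and females in orange. Lines are medians. Parp14 in LPS libraries stands above every saline library in both sexes, Trim26 does not separate, and Trim30a and Trim30b spread most in LPS males.

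No member was called between males and females, either at a stage, with saline or with LPS, or in the difference of the LPS effects. Over all genes 0.0722% were called between the sexes at E18, 0.0433% at P4, at P14 and at P60 with saline, 0.142% with LPS and 0.883% in the difference of the LPS effects. By edgeR 0 of 50 members had an unadjusted p under 0.05 at P4 and at P14, 6 at E18, 4 with saline, and, of 44, 6 with LPS and 11 in the difference. The share of all genes at this unadjusted threshold is not given here, so these counts do not set the members apart from other genes. DESeq2 called 0 members in each but the difference. Without the male E18 library M_E18 2, 4 members were called at E18, Trim24, Trim25, Trim33 and Trim44, with log2 folds of males over females of -0.96, -0.89, -1.04 and -0.76. In the difference the members nearest to a call were Trim30a and Trim30b. Trim30a had 424 CPM (225 to 696) in males with LPS, against 86.3, 117, 122, 132 and 136 CPM in the 5 males with saline. In females it had 274 CPM (174 to 385) with LPS and 155 CPM (123 to 295) with saline. The groups of males did not overlap while those of females did. The log2 fold of Trim30a with LPS was 1.99 ± 0.28 in males and 0.73 ± 0.25 in females, a difference of 1.26 ± 0.36 (adjusted p = 0.0624). For Trim30b the difference was 2.26 ± 0.66 (adjusted p = 0.0644). Leaving out F_P60_Sal 7, F_P60_Sal 6 or M_P60_Sal 2 brought at least 1 of Trim30a, Trim30b and Trim30d past the threshold, with adjusted p between 0.0372 and 0.0489.

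Within males 10 members rose and 2 fell, Trim32 and Trim37, where 19.5% of all genes were called, 11.9% risen and 7.57% fallen. Within females 2 rose, Parp14 by 1.79 ± 0.22 and Trim16 by 1.37 ± 0.40, where 5.06% of all genes were called, 4.17% risen and 0.892% fallen. A call in males and none in females does not show a difference. Of the 4 LPS libraries dated 4/9, 3 were male, with neutrophil sums of 6225, 5376 and 2567 CPM, above those of all other LPS libraries. Without the 4 libraries of this date the difference was 0.79 ± 0.36 for Trim30a (adjusted p = 0.254). The part of neutrophils in the difference was not tested. DESeq2 called 3 members in the difference, Trim30a, Trim30b and Trim30d, with adjusted p of 0.0268, 0.0187 and 0.0374, and 1 fit of all libraries called Trim30a (adjusted p = 0.0331). With sex taken from the other label, which differs from the title in 10 libraries, the difference for Trim30a was 0.68 ± 0.42 (adjusted p = 0.424). Xist, an RNA made in female cells, went against the title in 0 of 60 libraries. It had at least 1091 CPM under female titles and at most 132 CPM under male titles, so Xist goes with the title and not with the other label.

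Most interferon-inducible members rose over development without any LPS. Of all 50 members tested, 22 rose and 10 fell at P4 over E18, 15 rose and 7 fell at P14 over P4, and 13 rose and 15 fell at P60 with saline over P14. Between E18 and P4, 13 of 16 rose and 1 fell, and their median log2 fold was 1.22 against 0.03 over all genes, of which 48.3% were called, 25.5% risen and 22.7% fallen. From P4 to P14, 6 rose and 1 fell, with 41.5% of all genes called, 20.6% risen and 20.8% fallen. From P14 to P60 with saline 8 rose and 2 fell, with 44.1% of all genes called, 18.5% risen and 25.7% fallen. A comparison of the whole span, added after seeing the data, had 14 of 16 risen and 2 fallen at P60 with saline over E18, with a median of 1.96 against -0.08 over all genes, of which 66.3% were called, 31.4% risen and 34.8% fallen. Without M_E18 4 the span had the same counts and the first step had 12 risen. Where the libraries of 2 stages did not overlap, this is given for single members. The share of all genes without overlap was not counted at any step.

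Trim30d showed the largest rise of the span among the 50 members tested, a log2 fold of 3.52 ± 0.24, with 7.26 CPM (0.73 to 18.5) at E18, 27.8 (19.7 to 33.2) at P4, 41.9 (22 to 65.2) at P14 and 65.7 (57.9 to 118) at P60 with saline. All P4 libraries stood above all E18 libraries, and each later stage overlapped the one before it. The log2 folds were 1.83 ± 0.24 at P4 over E18, 0.91 ± 0.18 at P14 over P4 and 0.78 ± 0.15 at P60 with saline over P14 (adjusted p of 5.90e-08, 7.33e-05 and 3.88e-05). Trim30a, Trim12a and Trim12c were called at all 3 steps as well. Trim30a had 32.8 CPM (9.5 to 59.7) at E18, 84 (45.6 to 101) at P4, 95.7 (57.3 to 146) at P14 and 134 (86.3 to 295) at P60 with saline, so that each stage overlapped its neighbours. Trim12c had 7.61 CPM (2.92 to 16.7) at E18, 26.9 (18.5 to 30.5) at P4, 25.6 (17 to 45.7) at P14 and 46.6 (31.4 to 58.1) at P60 with saline, and its second step of 0.38 ± 0.16 (adjusted p = 0.0482) was lost in 30 of 36 alternatives, its median being lower at P14 than at P4.

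Parp14 and Trim56 rose at the first step and were not called at the later ones. Parp14 had 22.7 CPM (5.11 to 51.1) at E18, 82.8 (59.3 to 101) at P4, 72.1 (47.2 to 104) at P14 and 86.5 (46.1 to 143) at P60 with saline. All P4 libraries lay above all E18 libraries, and later stages overlapped with P4. The first step was 1.82 ± 0.24 (adjusted p = 3.50e-08), and that of Trim56 was 1.59 ± 0.29 (adjusted p = 1.62e-05). Trim21 had its step at the end, with 7.3 CPM (4.17 to 14.5) at E18, 12.1 (8.96 to 15.8) at P4, 10.2 (4.1 to 21.1) at P14 and 25.6 (17 to 43.6) at P60 with saline. Its log2 fold was 1.26 ± 0.18 at P60 with saline over P14 (adjusted p = 2.26e-07), against 0.66 ± 0.27 at P4 over E18, a call lost in 16 of 25 alternatives, among them the one without M_E18 4 (adjusted p = 0.0538). Parp9 rose at the first and the last step, by 1.30 ± 0.21 and 0.55 ± 0.14. Trim34a did so by 1.13 ± 0.26 and 0.77 ± 0.17, Parp12 by 0.58 ± 0.20 and 0.37 ± 0.14, and Parp10 rose at the first and second, by 0.71 ± 0.24 and 0.60 ± 0.19. The first call of Parp10 was lost in 5 of 25 alternatives, among them the one without Ttr-high libraries, that of Parp12 in 3 of 25, among them DESeq2 size factors, and the last of Parp12 in 2 of 41.

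Parp11 and Trim25 went the other way. Parp11, a mono-ADP-ribosyltransferase, had 44.3 CPM (27.8 to 60.7) at E18, 26.4 (21.5 to 29.1) at P4, 13.6 (7.38 to 28.7) at P14 and 19.7 (6.83 to 27.8) at P60 with saline. It fell by 0.69 ± 0.20 and 0.52 ± 0.16 on the log2 scale at the first and second steps (adjusted p of 0.00393 and 0.00919). Trim25 had 123 CPM (35.1 to 177) at E18, 139.6 (97.1 to 162) at P4, 107 (85.4 to 131) at P14 and 59.4 (37.4 to 72) at P60 with saline. All 12 saline libraries at P60 lay below all 20 at P14, and the log2 fold was -0.89 ± 0.12 (adjusted p = 5.77e-08). With LPS, at 89.8 CPM (66 to 182), Trim25 overlapped the levels of P14. Trim26 rose at the first steps, by 0.73 ± 0.16 and 0.77 ± 0.13, and fell at the last by 0.31 ± 0.11, which was lost in 20 of 41 alternatives. Trim14, at 1.31 ± 0.38, rose at the first step. Trim30b was not called at any single step, with 0.63 ± 0.55, 0.74 ± 0.42 and 0.10 ± 0.37, at medians of 1.28 to 3.23 CPM.

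**Figure D3:**
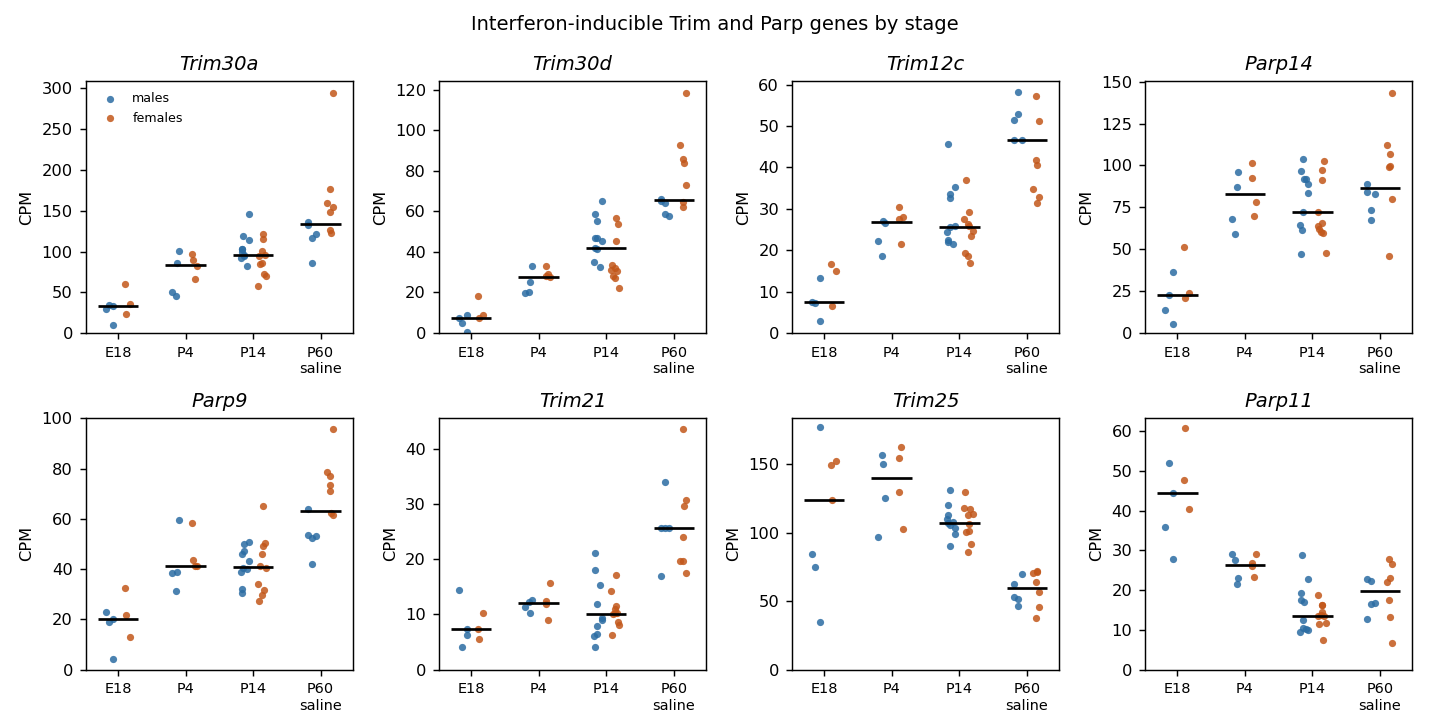
Levels in CPM (vertical axis, linear) of 8 interferon-inducible Trim and Parp genes in each library at E18, P4, P14 and P60 with saline, males in blue and females in orange, with lines at the medians. The medians of Trim30a and Trim30d are higher at each later stage, that of Trim12c is about level between P4 and P14 and higher at P60, Parp14 is higher from P4 on, Trim21 is highest at P60, and Trim25 and Parp11 are lower at P60 than at E18.

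Cell markers moved with each step. All 12 microglial markers rose at P4 over E18, with a median log2 fold of 1.8. All 10 tested neuron markers fell, with sums of 161 CPM (37.4 to 217) at P4 against 2070 CPM (617 to 3260) at E18, and all 4 tested red cell markers fell, with sums of 131 CPM (33.2 to 246) at P4 against 941 CPM (198 to 1097) at E18. Of the neutrophil markers 8 of 10 rose at P4. At P14 over P4, 12 of 12 microglial markers rose and 5 of 9 oligodendrocyte markers rose, while 8 of 8 astrocyte, 9 of 10 neutrophil, 5 of 7 monocyte, 7 of 10 neuron and 3 of 4 red cell markers fell. At P60 with saline over P14, 8 of 12 microglial and 5 of 8 choroid plexus markers rose, while 6 of 8 astrocyte, 6 of 10 neuron, 5 of 10 neutrophil and 5 of 7 border macrophage markers fell. The part of these in the changes of Trim and Parp genes was not tested.

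The Parp genes of DNA repair diverged. Parp1, which makes most poly(ADP-ribose) at DNA breaks, had 165 CPM (27 to 199) at E18, 131 (114 to 174) at P4, 97.4 (63.9 to 131) at P14 and 86 (41.1 to 121) at P60 with saline, and 66.1 CPM (29.2 to 95.6) with LPS. No single comparison called it, though over the whole span it fell by 0.42 ± 0.17 on the log2 scale (adjusted p = 0.029), and by 0.64 ± 0.14 without M_E18 4. Parp2, its partner in break repair, rose at P4 by 0.87 ± 0.19 (adjusted p = 2.74e-04). Parp3, which acts at double-strand breaks, had 4.29 CPM (0.73 to 7.08) at E18, 10.0 (6.45 to 13.2) at P4, 13.4 (5.71 to 20.1) at P14 and 18.6 (15.9 to 25) at P60 with saline. It was the only member outside the interferon list called as risen at all 3 steps, by 1.41 ± 0.24, 0.77 ± 0.18 and 0.57 ± 0.15. With LPS it was at 21.4 CPM (11.1 to 30.2), a log2 fold of 0.12 ± 0.15 with an interval of -0.19 to 0.42.

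Of the remaining Parp genes, Parp8 and Parp4 rose while Parp6 fell. Parp4, the PARP of vault particles, had 15.8 CPM (5.84 to 31.8) at E18, 43.3 (39.5 to 49.9) at P4, 40.9 (25.1 to 57) at P14 and 64.7 (15 to 87) at P60 with saline, and all P4 libraries lay above all E18 libraries. Its first step was 1.33 ± 0.22 and its last 0.63 ± 0.14 (adjusted p of 3.11e-06 and 4.49e-04). Parp8 rose by 1.33 ± 0.21 and 0.68 ± 0.16 at the first and second steps. Parp6 had 114 CPM (27 to 193) at E18, 32.4 (28.3 to 38.7) at P4, 38.3 (25.1 to 52.2) at P14 and 28 (9.97 to 39.8) at P60 with saline, and fell by 1.62 ± 0.18 on the log2 scale at P4 (adjusted p = 8.30e-10). The E18 library M_E18 4, at 27 CPM, lay below the P4 range, and the other 6 lay between 86.3 and 193 CPM, above it. It rose at P14 by 0.49 ± 0.15 and fell at P60 with saline by 0.47 ± 0.13. Parp16, of the endoplasmic reticulum, was called at no step. None of the 7 Parp genes outside the interferon list was called with LPS, with log2 folds between -0.26 and 0.12.

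Members with stable levels were taken as those whose 95% interval of the log2 fold lay inside a 2-fold change. With LPS this held for 35 of 44 members, 9 of 16 on the interferon list and 26 of 28 others, against 81.1% of all genes. In all 4 comparisons it held for 9 of 44, against 37.1% of 10518 genes tested in both fits. They were Trim24, Trim28 and Trim33 of the TIF1 group, Trim3, Trim39, Trim41, Trim44, Parp1 and Parp12. Parp12 is on the interferon list and was called with LPS, inside that limit. The limit holds for each comparison and not for the whole span, over which Parp12 rose by 1.11 ± 0.19, Trim33 by 0.68 ± 0.21 and Trim39 by 0.59 ± 0.18. With a limit of 1.5-fold 21 members held with LPS, and Trim44 was the 1 that held in all 4.

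Trim28, the corepressor that KRAB zinc finger proteins bring to retroelements, had 391 CPM (269.5 to 639) at E18, 261 (226 to 304) at P4, 212 (152 to 261) at P14 and 139.9 (42.4 to 191) at P60 with saline. With LPS it had 117 CPM (42.2 to 159.9), a log2 fold of -0.13 ± 0.17. Each step lay inside 2-fold, but 2 were called as falls, by 0.55 ± 0.18 and 0.60 ± 0.13 on the log2 scale, and over the whole span it fell by 1.18 ± 0.16 (adjusted p = 2.00e-08). Trim33, a ligase of Smad4, had 106 CPM (7.3 to 143) at E18, 107 (94.8 to 119) at P4, 122 (87.5 to 168) at P14 and 112 (34.9 to 134) at P60 with saline and 96.4 CPM (53.6 to 123) with LPS, with 1 call, at P14 over P4 (0.49 ± 0.18), lost in 10 of 36 alternatives. Trim24, a bromodomain corepressor, had log2 folds of 0.16 ± 0.21, 0.37 ± 0.18 and -0.50 ± 0.16, the last a fall (adjusted p = 0.00909).

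Trim44, which lacks a RING finger, had 236 CPM (28.5 to 269) at E18, 175 (158 to 184) at P4, 149 (109.6 to 183) at P14 and 122 (58.6 to 143) at P60 with saline, and 138 CPM (91.9 to 163) with LPS. Its lowest library at E18 was M_E18 4, and the other 6 lay between 174 and 269 CPM. It was called as lower at P60 with saline over P14, by 0.32 ± 0.12 on the log2 scale, which was lost in 21 of 41 alternatives. Over the whole span its log2 fold was -0.32 ± 0.16 (adjusted p = 0.0717), and it fell by 0.54 ± 0.11 without M_E18 4 and by 0.50 ± 0.15 with DESeq2 size factors. Trim41 had 56.2 CPM (34.3 to 77.5) at E18, 69.3 (62.5 to 79.6) at P4, 70.2 (40.8 to 81.8) at P14 and 54.4 (16.2 to 71.7) at P60 with saline and 52.6 CPM (36 to 64.8) with LPS, where its log2 fold was 0.00 ± 0.15 with an interval of -0.30 to 0.30, after a fall of 0.41 ± 0.12 at P60 with saline over P14. Trim39 was called at P4, at 0.51 ± 0.19, and the call was lost in 13 of 25 alternatives, among them the one without M_E18 4 (adjusted p = 0.0936). Trim3, of the neuronal list, was called in no comparison.

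**Figure D4:**
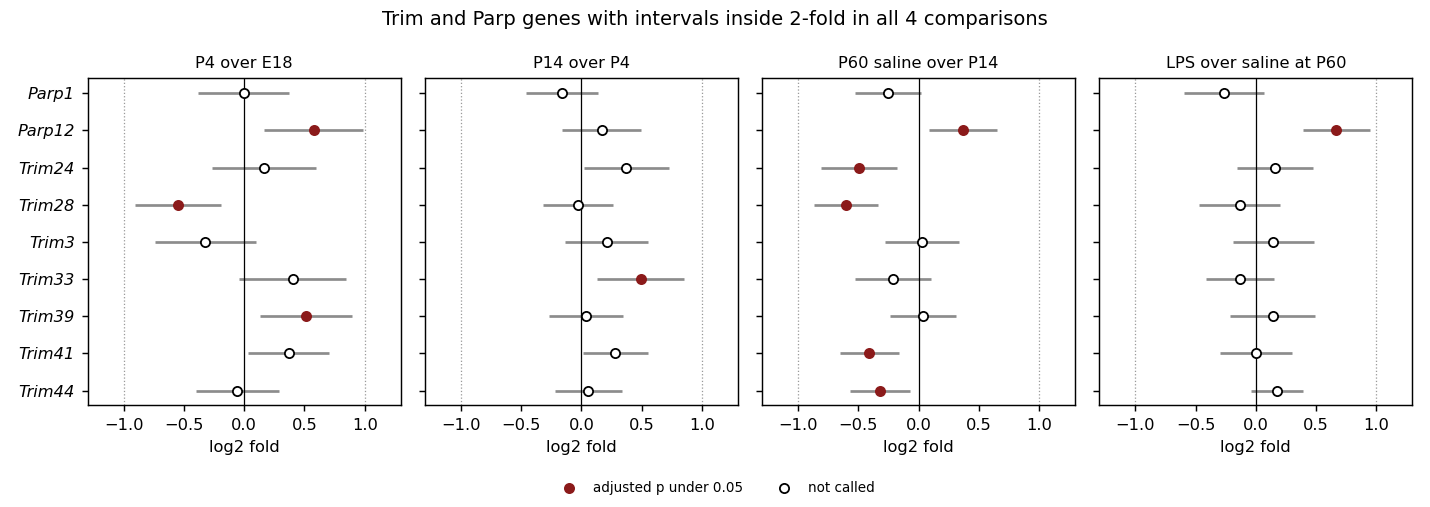
Log2 folds (horizontal axes) of the 9 Trim and Parp genes whose 95% intervals (bars) lie inside a 2-fold change (dotted lines) in all 4 comparisons, 1 panel a comparison. Filled points have an adjusted p under 0.05, and Parp12 is the only filled point with LPS.

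The neuronal list held the 3 largest falls over the span, of Trim46 (-6.46 ± 0.51), Trim67 (-6.03 ± 0.48) and Trim9 (-5.41 ± 0.70). Not all 6 members of this list fell. Over the span Trim36 rose by 1.99 ± 0.24, and Trim3 was not called (-0.08 ± 0.19, adjusted p = 0.718). Trim46, which bundles microtubules at the start of the axon, had 32.6 CPM (7.3 to 73.9) at E18, 3.51 (1.95 to 4.24) at P4, 0.739 (0 to 5.32) at P14 and 0 (0 to 1.03) at P60 with saline. All P4 libraries lay below all E18 libraries, and the log2 fold was -3.33 ± 0.42 (adjusted p = 1.62e-08). Trim46 passed the low-count filter through its E18 libraries, so its being tested favoured a fall from E18. The call held in 25 of 25 alternatives, no filter among them. The 12 saline libraries at P60 held 6 counts in all, and 7 of them held none. Trim67 had 74.3 CPM (6.57 to 128) at E18, 6.29 (0.976 to 9.01) at P4, 2.2 (0 to 8.19) at P14 and 0.407 (0 to 2.1) at P60 with saline, with a first step of -3.36 ± 0.42 (adjusted p = 1.28e-08). Trim2, a ligase of neurofilament light chain, had 136 CPM (15.3 to 221) at E18, 38.3 (21.5 to 43.7) at P4, 28 (18.4 to 44) at P14 and 33.4 (21.3 to 38.2) at P60 with saline and fell at the first step alone, by 1.68 ± 0.22 on the log2 scale (adjusted p = 6.09e-08).

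Trim9, a brain ligase of netrin signalling and the closest relative of Trim67, kept another time. It had 47.7 CPM (0.73 to 75.7) at E18, 45 (28.6 to 75.8) at P4, 3.19 (0 to 23.5) at P14 and 0 (0 to 1.68) at P60 with saline. At P4 the libraries overlapped those of E18, with a log2 fold of 0.41 ± 0.53 (adjusted p = 0.535), while the summed neuron markers were lower in every P4 library than in every E18 library. Astrocyte markers had 0 of 8 fallen at P4, with sums of 1454 CPM (992 to 2063) at P4 against 1320.1 CPM (815 to 2540.1) at E18, and 8 of 8 fallen at P14, with sums of 269 CPM (119 to 1252) at P14. All 20 P14 libraries lay below all P4 libraries, at -2.77 ± 0.44 (adjusted p = 1.93e-06), and P60 with saline was lower again, at -3.06 ± 0.71 (adjusted p = 5.75e-04). Trim36, a ligase of the microtubule network, went the other way, with 25 CPM (3.65 to 32.2) at E18, 18.4 (10.9 to 27) at P4, 32.7 (22.5 to 57.5) at P14 and 61.8 (36.8 to 85.5) at P60 with saline. It rose by 1.25 ± 0.21 and 0.78 ± 0.17 at the later steps (adjusted p of 6.58e-06 and 2.03e-04) as the neuron markers summed to 53.7 CPM (9.35 to 247) at P14 and 18 CPM (6.94 to 29) at P60 with saline. The share of these levels that came from neurons or astrocytes was not tested.

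**Figure D5:**
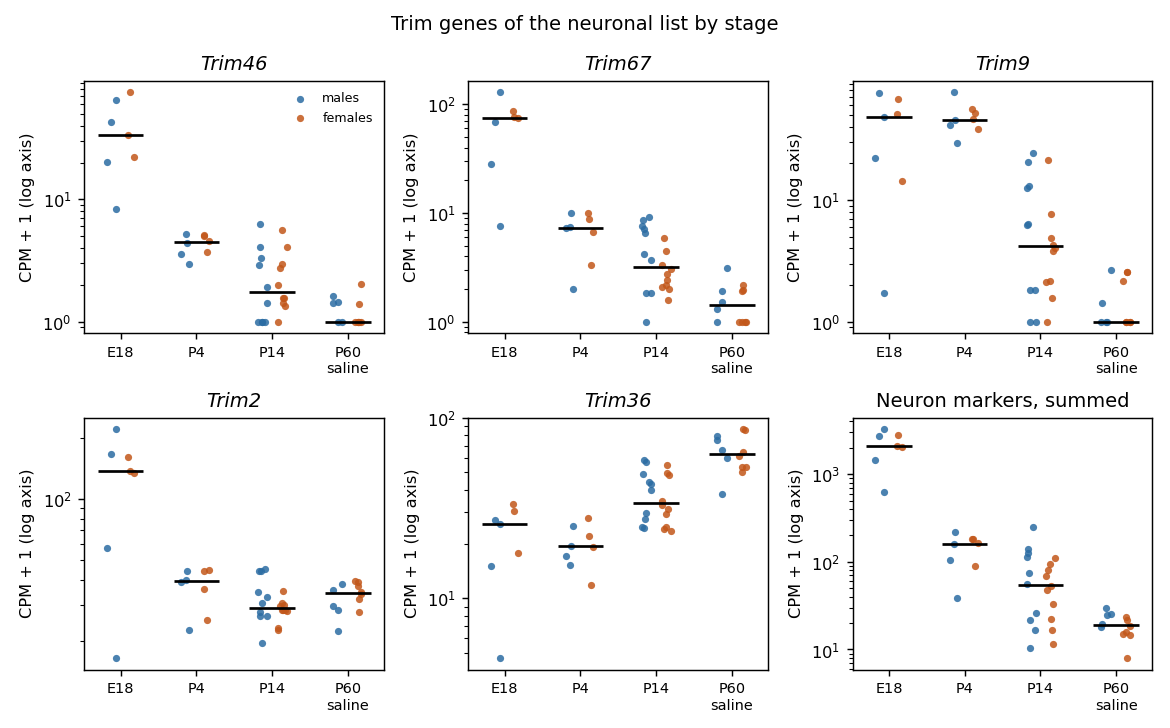
Levels as CPM + 1 on log axes of 5 Trim genes of the neuronal list and of the summed neuron markers, in each library by stage, males in blue and females in orange, with lines at the medians. Trim46, Trim67 and Trim2 are lower from P4 on together with the neuron markers, Trim9 is lower from P14 on, and Trim36 is higher at P14 and P60.

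Among other Trim genes, Trim47 and Trim8 had their highest stage median at P14. Trim47 had 56.2 CPM (28.5 to 82.7) at E18, 68.6 (35.1 to 97) at P4, 155 (62.9 to 249) at P14 and 46.2 (19.7 to 111) at P60 with saline. It rose by 1.40 ± 0.25 at P14 over P4 (adjusted p = 1.67e-05) and fell by 1.56 ± 0.22 on the log2 scale at P60 with saline over P14 (adjusted p = 2.26e-07). Within P14 the label dates differed, with medians of 95.1 CPM in the 6 libraries dated 2/24, 164 CPM in the 8 dated 2/28 and 165 CPM in the 6 dated 3/14, while endothelial markers summed to medians of 1577, 2669 and 1222 CPM, and their part was not tested. Trim8, a ligase of cytokine signalling, had 88 CPM (11 to 109) at E18, 115 (85.3 to 148) at P4, 191 (116 to 337) at P14 and 112 (7.48 to 193) at P60 with saline, with 1.09 ± 0.25 and then -0.85 ± 0.22 at these steps (adjusted p of 4.62e-04 and 0.00139). Its rise at P4 (0.72 ± 0.30) was lost in 19 of 25 alternatives, among them the one without M_E18 4 (adjusted p = 0.165). Trim65, a ligase of the RNA sensor MDA5 (Ifih1), rose at the first steps, by 1.14 ± 0.34 and 1.27 ± 0.25. With LPS its log2 fold was -0.63 ± 0.24 (adjusted p = 0.0873), on the other side of 0 from Ifih1, which rose by 1.90 ± 0.17.

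Others fell at 1 or more steps. Trim35 had 297 CPM (221 to 385) at E18, 161 (136 to 172) at P4, 120.2 (91 to 146) at P14 and 113 (84.4 to 131) at P60 with saline and fell by 0.82 ± 0.13 on the log2 scale at P4 (adjusted p = 2.21e-06), where all libraries lay below all those of E18. Trim37, a ligase of centrosomes and peroxisomes, had 161 CPM (40.2 to 180.0) at E18, 96.2 (73.5 to 120.0) at P4, 41.6 (19.2 to 73.1) at P14 and 44.5 (17.1 to 82.2) at P60 with saline. All P14 libraries lay below all P4 libraries, with a log2 fold of -0.90 ± 0.17 (adjusted p = 3.18e-05). Trim59 fell by 0.82 ± 0.20 and 1.22 ± 0.21 at the later steps, to 6.41 CPM (3.87 to 10.4) at P60 with saline, against 13.4 CPM (5.95 to 39) at P14. Trim32 fell by 1.63 ± 0.19 at P4 (adjusted p = 2.24e-09), all libraries lying below E18. Trim45 fell by 0.88 ± 0.34 and 0.95 ± 0.30 at the first steps, the first of which was lost in 4 of 25 alternatives, among them the one without M_E18 4 (adjusted p = 0.0834). Trim23, which ends in an ARF-like GTPase domain, had 38.8 CPM (8.76 to 44.6) at E18, 28.8 (20.8 to 42.6) at P4, 16.6 (9.65 to 30.2) at P14 and 41.3 (24.5 to 58.1) at P60 with saline. It fell by 0.55 ± 0.18 at P14 and rose by 1.28 ± 0.16 at P60 with saline (adjusted p of 0.0124 and 1.28e-08). Trim27 fell at P60 with saline by 0.85 ± 0.14 (adjusted p = 3.97e-06).

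Relatives under other names were mostly called with LPS. Of 8 such TRIM and PARP genes 5 rose, where 10.5% of all genes rose. Mefv, which encodes pyrin, a TRIM protein of inflammasomes, had 14.2 CPM (6.65 to 57.2) with LPS, against 0 CPM (0 to 2.78) with saline, and a log2 fold of 5.26 ± 0.48 (adjusted p = 1.94e-09). Mefv, 1 of these 5, passed the low-count filter through its LPS libraries alone, so its being tested favoured a rise. Tiparp, the PARP induced by the aryl hydrocarbon receptor, had 236 CPM (110.0 to 342) with LPS, against 82.9 CPM (49.9 to 151) with saline, and 1.43 ± 0.17 (adjusted p = 2.30e-07). Zc3hav1, the antiviral zinc finger PARP, rose by 1.03 ± 0.15 and Mid1 by 1.43 ± 0.27. Tiparp and Zc3hav1 fell at P60 with saline over P14, by 1.12 ± 0.17 and 0.62 ± 0.13 on the log2 scale, although both had risen at P14.

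Of 21 tested genes of interferon signalling 14 rose with LPS and 1, Mavs, fell, by 0.58 ± 0.15 on the log2 scale, where 10.5% of all genes rose and 3.95% fell. Isg15, the ubiquitin-like modifier, had 91 CPM (14.4 to 207) with LPS, against 8.15 CPM (4.63 to 20.5) with saline, a log2 fold of 3.56 ± 0.30 (adjusted p = 4.28e-10). Usp18, which removes it, rose by 3.51 ± 0.31, Ifih1 by 1.90 ± 0.17 and Herc6, the ligase that attaches Isg15 in mice, by 1.17 ± 0.12. At P4 over E18 16 of the 21 rose and 1 fell, where 25.5% of all genes rose and 22.7% fell. That 1 was Isg15, with 6.37 CPM (0.358 to 13) at P4, against 13.8 CPM (12.8 to 25.6) at E18 and a log2 fold of -1.08 ± 0.35 (adjusted p = 0.00879), while Herc6 rose by 1.54 ± 0.21, the adaptor of RNA sensing Mavs by 1.09 ± 0.16, the DNA sensing adaptor Tmem173 (STING) by 1.52 ± 0.23 and the kinase Tbk1 by 1.01 ± 0.15. From P4 to P14 9 rose, where 20.6% of all genes rose, and 1 fell, Ikbke, by 1.40 ± 0.25, where 20.8% fell. From P14 to P60 with saline 11 rose, among them Dtx3l by 1.42 ± 0.16, Ddx58 by 0.80 ± 0.12, Tmem173 by 0.98 ± 0.15 and Herc6 by 0.85 ± 0.13, and 5 fell, where 18.5% of all genes rose and 25.7% fell.

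Genes that remove ADP-ribose or join broken strands had 0 of 8 tested members called with LPS by edgeR, and 0 at an unadjusted p under 0.05. Of all genes 14.4% were called with LPS. At P4 over E18, where 25.5% of all genes rose and 22.7% fell, 1 of 11 rose, Parg, the hydrolase of poly(ADP-ribose) chains, by 0.45 ± 0.17. At this step 6 fell, among them Macrod2 by 1.75 ± 0.50, Adprhl2 by 0.93 ± 0.27, Adprh by 0.65 ± 0.18 and Polb by 0.64 ± 0.16 on the log2 scale. At the later steps 1 was called in each, Polb at P14 (0.34 ± 0.13) and Lig3, the ligase of strand breaks, at P60 with saline (-0.46 ± 0.11). Of all genes 41.5% and 44.1% were called at these steps.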

How the data were processed

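RNA was extracted with Trizol and sequenced from stranded poly(A) libraries, per the labels' protocols. The authors deposited raw read counts per transcript in 1 table, and the submitters' processing notes name CASAVA 1.8.2, the genome build mm9 and edgeR. Which aligner and counter were run is not given in the sources used here. All 60 columns matched a title, and 0 value columns were unmapped. The table marks 1 row a gene as best, and that row was used (for 4 of 78 members without a mark, the row with the highest total). CPM is the count over the total of all genes of a library, times 1000000.

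Computed here: edgeR 4.0.16 quasi-likelihood tests (R 4.3.3) with TMM scaling and the edgeR low-count filter, in 1 fit of the 47 libraries of the stages and 1 of the 25 at P60, with a mean for each group of stage or treatment and sex (by title), averaged over the sexes with equal weight, and Benjamini-Hochberg adjustment over all genes tested. The 95% intervals come from the same fits. The procedure was also run on counts simulated from the kind of model that edgeR fits. This was done for LPS over saline and for P60 with saline over P14. The simulated counts held no effect of date or cell mixture, and the outcome is not given here. Alternatives were DESeq2 1.42.0, its size factors, no filter, other rows of a gene, a replicate block, sex by the other label, 1 fit of all libraries, and leaving out libraries, dates or Ttr-high libraries. Males and females with the same number at P4 carried the same dates, and their deviations correlated by 0.454 to 0.647 over 4 pairs. Those of same-numbered females at E18 and P4 did so by 0.187 to 0.529 over 3 pairs, while males at these stages did not in every pair. Totals of 802016 to 3497454 counts limit the precision of members at few CPM, and the floor of 3 counts covers counting error only.

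The members and lists were chosen with earlier results of these data known. Genes named in the text were, for each comparison, the 6 members with the largest called changes each way at 5 CPM or more, the tested members of the interferon-inducible list, the most stable members, the leading member of each role, and up to 4 genes of each pathway list. Parp2, Parp4, Parp16, Trim3, Trim24, Trim39 and Parg, and members named as untested or at 0, were chosen after their values were seen. Lengths come from GENCODE M21 and promoter windows from RefSeq (GRCm38.p6).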

Additional observations from a re-analysis of the deposited data

Results flagged for a closer look

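Of 94 groups of 4 to 10 libraries tested over 47 members, 3 held a library far from the others, where chance gives about 1 in 20 groups. At E18, Trim37 had 40.2 CPM in the library titled M_E18 4, against 148 to 180.0 CPM in the other 6. Trim44 had 28.5 CPM in the same library, against 174 to 269 CPM in the others. At P4, Trim45 had 4.12 CPM in F_P4 2, against 7.5 to 10.5 CPM in the other 7 libraries.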

How the results depend on the processing

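Of 93 results on single members, 74 kept direction and call in every alternative run, 19 lost the call in at least 1 and 0 changed sign. The 1 member that fell with LPS became 0 with no low-count filter, the row with the highest total, the replicate block, or without the libraries dated 4/10 or 4/9. In females the 2 that rose became 4 with DESeq2, 5 with sex by the other label, and 1 with rows summed or without 4/10. In males the 2 that fell became 1 with DESeq2 size factors, no filter, the row with the highest total, sex by the other label or without 4/8, and 0 without 4/9. The difference between the sexes, 0 members called, became 3 with DESeq2 and 1 with 1 fit. A limit of 1.5-fold left 21 members stable with LPS and 1 in all 4 comparisons. The cause was not tested.

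Leaving out 1 library at a time gave 0 to 1 fallen with LPS, 9 to 12 risen, 1 to 4 risen and 0 to 1 fallen in females, 9 to 12 risen and 1 to 2 fallen in males, 0 to 2 for the difference and 0 to 4 between the sexes at E18. It gave 17 to 25 risen and 9 to 13 fallen at P4 over E18. Same-numbered males and females at P14 shared all 10 dates, each date holding 3 or 4 numbers, with correlations over 0.1 in 9 of 10 pairs and 1 best match, and same-numbered females at E18 and P4 correlated by 0.187 to 0.529 over 3 pairs on different dates. Same-numbered males and females at P4 correlated by 0.454 to 0.647 over 4 pairs on shared dates. In the other group pairs at least 1 correlation was under 0.1. With the replicate block 10 of the 11 calls with LPS, 32 of 32 at P4 over E18, 18 of 22 at P14 over P4 and 26 of 28 at P60 with saline over P14 were shared. The all-gene median log2 fold was -0.10 at P4 over E18 and -0.12 at P14 over P4 with DESeq2 size factors, against 0.03 and -0.01 with TMM. Depth limits members at few CPM.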
